A study of Homo sapiens with 6 samples.

Results

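The 10 genes described here encode enzymes of the synthesis of phosphatidylcholine, phosphatidylethanolamine and phosphatidylserine. They are CHKA, CHKB, PCYT1A, PCYT2, CEPT1, CHPT1, SELENOI, PTDSS1, PTDSS2 and PISD. They were chosen by name from a table of 58978 genes, and all 10 names matched a single row each. Other enzymes of these routes, such as PEMT, ETNK1 and PCYT1B, are counted below in a list of choline and ethanolamine supply. The table holds RNA-seq read counts in 6 libraries of HT29 cells, an established line from a human colorectal adenocarcinoma. In 3 libraries the cells carried a short hairpin RNA against FITM2 (shFITM2, labelled as a FITM2 knockdown) and in 3 a control hairpin (shCTRL, labelled as wild type). Both groups were grown in the same serum-supplemented medium and labelled untreated. Whether the cells of a group are a pool or a single clone is not given in the sources used here, and no label says that the libraries of a group came from separate cultures. The p-values therefore rest on library-to-library spread that may be technical. FITM2 is an endoplasmic reticulum protein needed for lipid droplets to bud, and the series concerns lipid droplets, diacylglycerol of the trans-Golgi network and trafficking of the interferon-gamma receptor.

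Phosphatidylcholine and phosphatidylethanolamine are the main phospholipids of mammalian membranes. In the CDP-choline and CDP-ethanolamine routes, a kinase phosphorylates choline or ethanolamine, a transferase activates the phosphorylated base with CTP, and a phosphotransferase joins it to diacylglycerol. Phosphatidylserine is then made by base exchange on these lipids, and in mitochondria it is decarboxylated back to phosphatidylethanolamine. Diacylglycerol used here is not available for triacylglycerol, the lipid stored in droplets.

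The libraries held 16964075 to 18263911 reads in shFITM2 and 17176487 to 18855731 in shCTRL. FITM2 itself had 4.83, 5.98 and 4.95 CPM (the read count scaled to library size) in shFITM2 libraries, against 13.3, 10.6 and 10.4 CPM in shCTRL libraries. Its log2 fold change was −1.12 ± 0.157 (SE; adjusted p = 0.000242). Here and below, adjusted p comes from the quasi-likelihood test of edgeR, with Benjamini-Hochberg adjustment over the 14809 genes tested. For FITM2 alone, an exact two-sided permutation test reached its floor with 3 libraries per group, p = 0.1. All 10 intestinal epithelial markers of a list were measured, with KRT8 averaging 8384 ± 286 CPM in shFITM2 libraries and 6142 ± 718 CPM in shCTRL libraries (SD, n = 3). Of these 10 markers, 7 were called higher and EPCAM lower, with a median log2 fold change of 0.36, against 24.2% higher and 24.5% lower of all tested genes. After the GC correction described below, 4 were higher and EPCAM and CDX1 lower, with a median of 0.11, against 11.8% higher and 17.4% lower of all genes. CDX1 and CDX2 had few reads, with means of 0.45 and 1.72 CPM in shFITM2 libraries and 0.84 and 0.82 CPM in shCTRL libraries. The markers summed to 13260 to 13990 CPM in shFITM2 libraries and 9748 to 11740 CPM in shCTRL libraries. Most of these sums came from KRT8 and from KRT18, which averaged 3439 and 2719 CPM in the same order. The part of the epithelial markers in the results below was not tested. Of 10 markers of other cell types, COL1A2 and ALB had no read, and the whole list summed to 2.3 to 3.18 CPM in shFITM2 libraries and 2.01 to 3.81 CPM in shCTRL libraries. In bulk RNA, fewer cells of a kind and less RNA per cell cannot be told apart.

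Fold changes between the groups followed the GC content of the transcripts across the whole table, so the fold changes below are given from 2 fits. The group fit compares the counts as deposited. The GC-corrected fit removes from each library its smooth trend of expression on transcript GC content, and with it whatever the cells themselves changed along GC content. The median log2 fold change of all genes ran from −0.47 in the decile of genes lowest in GC (27.8% to 38.7%) to 0.70 in the decile highest in GC (61.9% to 83.9%). The library slopes were 0.26, 0.23 and 0.18 log2 units per 10 percentage points of GC in shFITM2, against −0.27, −0.34 and −0.06 in shCTRL. The third shCTRL library thus lay nearest to the shFITM2 libraries, and results that turn on it are named. Genes with an adjusted p under 0.05 are referred to as called.

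In the group fit, SELENOI, CEPT1 and PTDSS1 were lower and PTDSS2, PCYT2 and PISD higher in shFITM2 cells. Of the 9 synthesis genes with enough reads to test, 3 were therefore called higher and 3 lower, while 48.7% of all tested genes were called, 24.2% higher and 24.5% lower. With so large a share called across the table, the 6 calls among 9 genes set nothing apart in this set. After GC correction, SELENOI, PTDSS1 and CHKA were called lower and CHPT1 higher, against 29.2% of all genes, 11.8% higher and 17.4% lower. SELENOI and PTDSS1 were lower in both fits, and 17.9% of all genes were called in the same direction in both. The median log2 fold change of the 9 genes was −0.09 in the group fit and −0.18 after GC correction, beside medians of −0.0002 and −0.03 over all tested genes. The CPM of the groups did not overlap for 8 of the 9 genes (59% of all genes), and GC-adjusted CPM did not overlap for 5 (43.3% of all genes).

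**Figure D1:**
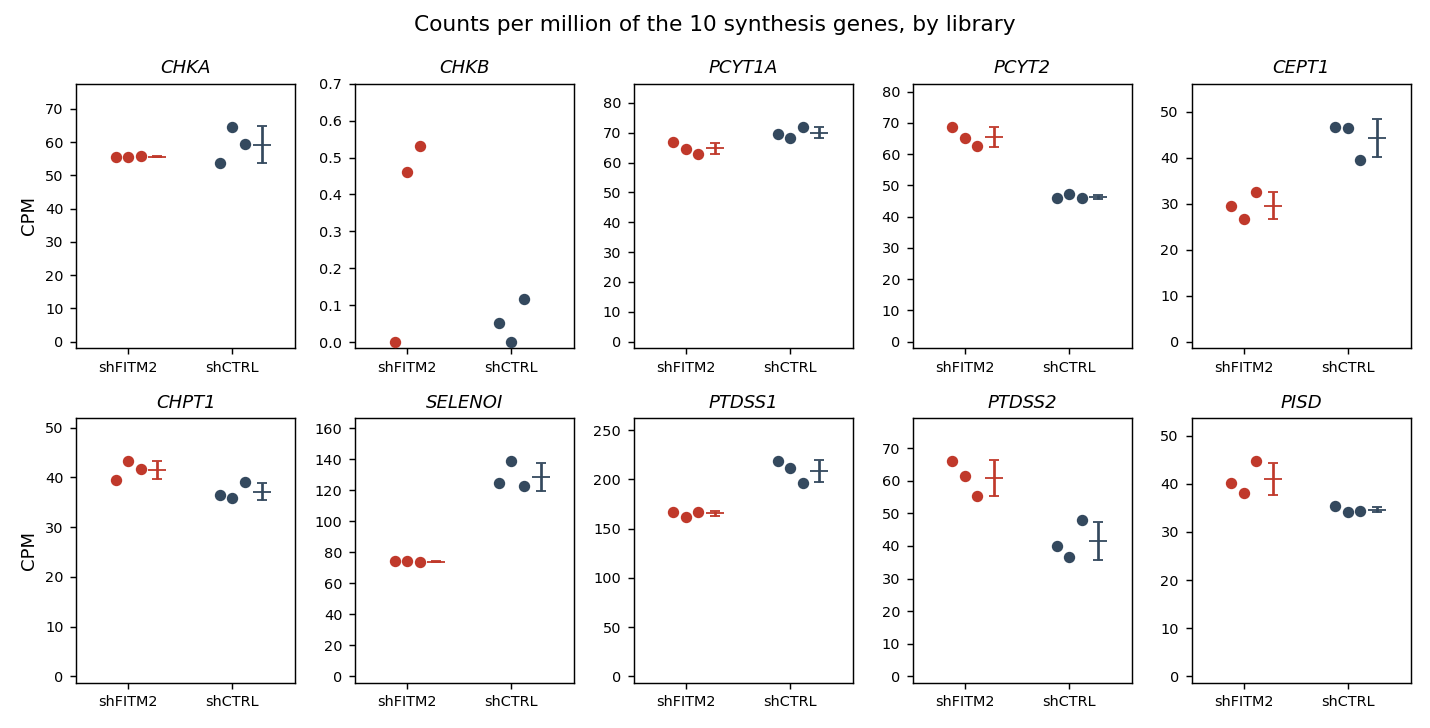
CPM (vertical axes) of each of the 10 genes in each library (points), with shFITM2 left of shCTRL, and the mean with its SD (n = 3) beside the points except for CHKB, whose libraries held 0 to 9 reads. The shFITM2 points of SELENOI lie between 73.4 and 74.3 CPM, below all shCTRL points, and those of PCYT2 and PTDSS2 lie above all shCTRL points.

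The first step of the CDP-choline route is catalysed by choline kinase. CHKA encodes the alpha isoform (ENSG00000110721, chr11:68052859-68121444, minus strand, GRCh38 as for all positions here). CHKA had 55.7, 55.6 and 55.8 CPM in shFITM2 libraries, against 53.8, 64.7 and 59.4 CPM in shCTRL libraries. The groups overlapped, because the first shCTRL library lay below the shFITM2 libraries and the other two above. The log2 fold change was −0.09 ± 0.0843 (adjusted p = 0.395, edgeR). In the GC-corrected fit it was −0.23 ± 0.0741 (adjusted p = 0.0308), and this call was lost without shFITM2 replicate 1, 2 or 3 or shCTRL replicate 2 (adjusted p = 0.12, 0.106, 0.0905 and 0.145).

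CHKB, the beta isoform (ENSG00000100288, chr22:50578949-50601455, minus strand), was hardly counted at all. It had 0, 8 and 9 reads in shFITM2 libraries, against 1, 0 and 2 in shCTRL libraries, and it failed the filter on low counts. The 17 reads in shFITM2 against 3 in shCTRL give a ratio of 5.87 with a counting interval of 1.7 to 31.2 (95%, exact binomial, counting error only). With no filter it was not called (log2 fold change 2.43 ± 1.14, adjusted p = 0.113, edgeR). The annotation also holds CHKB-CPT1B, a readthrough gene on the same strand that overlaps CHKB over 4017 bases and had 7 reads in all 6 libraries. How reads that fall in both genes were counted is not given in the sources used here, so the count of CHKB may be incomplete.

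The next step, the making of CDP-choline and CDP-ethanolamine, is generally rate-limiting for its route. PCYT1A encodes the choline enzyme (ENSG00000161217, chr3:196214222-196287957, minus strand). It had 66.8, 64.7 and 62.9 CPM in shFITM2 libraries, against 69.7, 68.4 and 72.0 CPM in shCTRL libraries. The shFITM2 values lay just below all shCTRL values, but the log2 fold change of −0.11 ± 0.0713 did not pass the test (adjusted p = 0.213, edgeR), nor did −0.03 ± 0.0603 after GC correction (adjusted p = 0.751).

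PCYT2 encodes the ethanolamine enzyme (ENSG00000185813, chr17:81900965-81911464, minus strand). PCYT2 had 68.8, 65.0 and 62.5 CPM in shFITM2 libraries, against 46.1, 47.1 and 45.8 CPM in shCTRL libraries. Every shFITM2 library stood above every shCTRL library. The log2 fold change was 0.50 ± 0.0759, or 1.41-fold (adjusted p = 0.000378, edgeR). GC correction turned the sign, to −0.27 ± 0.13 (adjusted p = 0.168), and without shCTRL replicate 3 it was called lower (−0.43, adjusted p = 3.78e-07). GC-adjusted PCYT2 was 51.1, 49.95 and 50.1 CPM in shFITM2 libraries, against 64.3, 71.1 and 47.5 CPM in shCTRL libraries, so that the third shCTRL library alone lay below the shFITM2 range. At 64.6% GC its transcript was the richest in GC of the 10. The last 27 bases of PCYT2 overlap ANAPC11 on the opposite strand. ANAPC11 had log2 fold changes of 0.094 (adjusted p = 0.333, edgeR) and, GC-corrected, −0.34 (adjusted p = 0.00167).

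CEPT1, CHPT1 and SELENOI encode the phosphotransferases that join the activated base to diacylglycerol. CHPT1 uses CDP-choline, SELENOI uses CDP-ethanolamine and CEPT1 accepts both. The 3 genes share the signature of CDP-alcohol phosphotransferases, a run of 23 codons in which aspartate, glycine, alanine and arginine positions are fixed. The coding bases of that run are shown because the 3 genes carry the same catalytic signature while the fold changes of their mRNAs differed in sign. They are given 5′ to 3′ from GENCODE release 29 transcripts, with the fixed codons in capitals.
CEPT1 (chr1:111159446-111159514, plus strand): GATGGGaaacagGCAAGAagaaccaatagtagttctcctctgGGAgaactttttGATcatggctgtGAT
CHPT1 (chr12:101714156-101714224, plus strand): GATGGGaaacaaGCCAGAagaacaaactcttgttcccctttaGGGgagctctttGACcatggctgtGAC
SELENOI (chr2:26373375-26373443, plus strand): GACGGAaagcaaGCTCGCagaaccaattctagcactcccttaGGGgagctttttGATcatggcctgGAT
Of the 69 bases, 54 were the same in CEPT1 and CHPT1 and 50 in each of these and SELENOI, and each run lay in a single exon.

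SELENOI, a selenoprotein (ENSG00000138018, chr2:26308547-26395891, plus strand), showed the largest change of the tested synthesis genes in both fits. SELENOI had 74.3, 74.3 and 73.4 CPM in shFITM2 libraries, against 124, 139 and 123 CPM in shCTRL libraries. The shFITM2 libraries lay within 1 CPM of one another and far below every shCTRL library. SELENOI fell to 57.6% of its mean level in shCTRL, with a log2 fold change at −0.80 ± 0.0731 (adjusted p = 3.58e-05, edgeR). After correction it was −0.38 ± 0.0548 (adjusted p = 9.07e-05). GC-adjusted values were 88.4, 85.8 and 81.7 CPM in shFITM2 libraries, against 106, 112 and 115 CPM in shCTRL libraries, again without overlap.

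CEPT1 (ENSG00000134255, chr1:111139627-111185102, plus strand) had 29.4, 26.6 and 32.5 CPM in shFITM2 libraries, against 46.7, 46.4 and 39.5 CPM in shCTRL libraries. All shFITM2 values were lower, and the third shCTRL library was the nearest to them. In the group fit CEPT1 was lower, the log2 fold change being −0.58 ± 0.104 (adjusted p = 0.000901, edgeR). GC-corrected, it was −0.18 ± 0.0808 and was not called (adjusted p = 0.116), except when shCTRL replicate 3 was left out (adjusted p = 0.0443). The first 590 bases of the gene overlap DRAM2, which lies on the other strand and may contribute reads to the count. DRAM2 had log2 fold changes of −0.22 and, GC-corrected, 0.046, not called in either (adjusted p = 0.0506 and 0.628).

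CHPT1 (ENSG00000111666, chr12:101696947-101744140, plus strand) had a fold change of the other sign. CHPT1 had 39.6, 43.2 and 41.7 CPM in shFITM2 libraries, against 36.5, 35.9 and 39.2 CPM in shCTRL libraries. The groups did not overlap, but by a margin of less than 1 CPM between the first shFITM2 and the third shCTRL library. The log2 fold change was 0.16 ± 0.084 in the group fit (adjusted p = 0.137, edgeR; adjusted p = 0.0446 without shCTRL replicate 3). In the GC-corrected fit CHPT1 rose, by 0.32 ± 0.078 (adjusted p = 0.00557), and it was called in all 10 alternatives with GC correction.

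Phosphatidylserine synthases exchange the base of an existing phospholipid for serine. PTDSS1, which acts on phosphatidylcholine (ENSG00000156471, chr8:96261715-96336995, plus strand), had the highest level of the 10 genes. PTDSS1 had 167, 162 and 167 CPM in shFITM2 libraries, against 218, 211 and 196 CPM in shCTRL libraries. All shFITM2 libraries lay below all shCTRL libraries. PTDSS1 fell in the group fit, where its log2 fold change was −0.33 ± 0.0663 (adjusted p = 0.00171, edgeR), and in the GC-corrected fit, where it was −0.29 ± 0.0475 (adjusted p = 0.000298). Of the genes called in both fits, its value moved less between them than that of SELENOI.

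PTDSS2, which acts on phosphatidylethanolamine (ENSG00000174915, chr11:448268-491399, plus strand), had 65.9, 61.4 and 55.2 CPM in shFITM2 libraries, against 40.0, 36.5 and 48.1 CPM in shCTRL libraries. Every shFITM2 library was above every shCTRL library, and the third library of each group was the nearest to the other group. The log2 fold change was 0.55 ± 0.11, or 1.47-fold (adjusted p = 0.00174, edgeR). Correction for GC gave −0.10 ± 0.0672 (adjusted p = 0.3), with GC-adjusted values of 50.8, 48.6 and 45.7 CPM in shFITM2 libraries and 53.3, 51.6 and 50.6 CPM in shCTRL libraries, which overlapped.

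PISD encodes phosphatidylserine decarboxylase of the inner mitochondrial membrane (ENSG00000241878, chr22:31618491-31662432, minus strand). PISD had 40.1, 38.1 and 44.7 CPM in shFITM2 libraries, against 35.3, 34.2 and 34.4 CPM in shCTRL libraries. The groups did not overlap, and the log2 fold change was 0.24 ± 0.0884 (adjusted p = 0.04, edgeR). This call was lost without shFITM2 replicate 1, 2 or 3 or shCTRL replicate 1 or 2 (adjusted p = 0.094, 0.0561, 0.169, 0.0895 and 0.0852) and in the DESeq2 Wald test (adjusted p = 0.0624). The GC-corrected value was −0.13 ± 0.0868 (adjusted p = 0.303). The last 96 bases of PISD overlap SFI1 on the opposite strand, whose own log2 fold change was 0.38 (adjusted p = 0.0259) and, GC-corrected, −0.12 (adjusted p = 0.419).

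**Figure D2:**
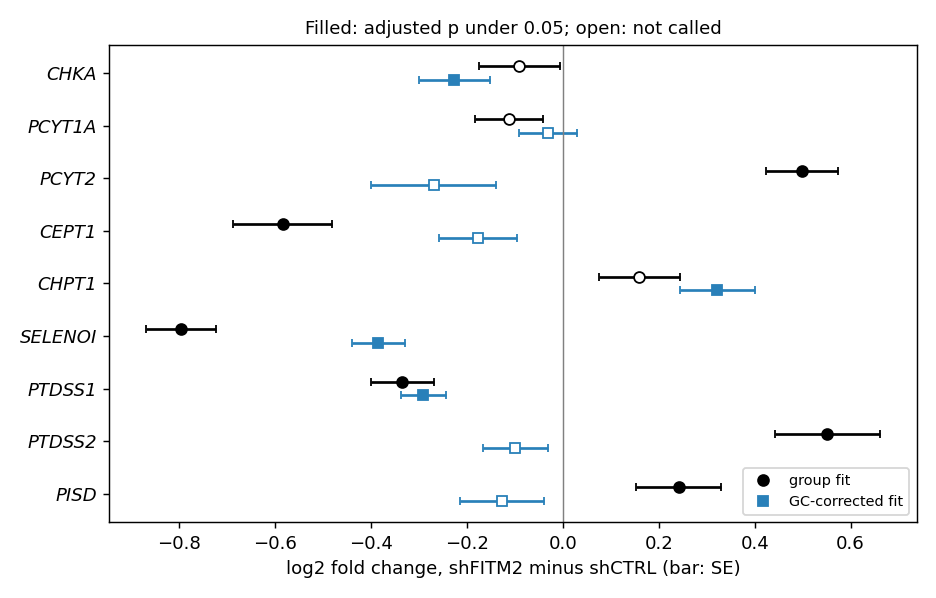
Log2 fold change (shFITM2 minus shCTRL, bars SE) of the 9 tested synthesis genes in the group fit (black circles) and in the GC-corrected fit (blue squares), filled where the adjusted p was under 0.05. SELENOI and PTDSS1 are filled and left of 0 in both, while PCYT2, PTDSS2 and PISD lie right of 0 in black and left of 0 in blue.

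The order of the 9 fold changes in the group fit followed transcript GC content, with a Spearman correlation of 0.867 across these 9 genes beside 0.744 across 14635 genes. Genes are not independent replicates, and all share the same 6 libraries. SELENOI and CEPT1 have 38.4% and 38.6% GC, in the decile of genes whose median was −0.47, and both were further down than that median. PTDSS2 and PCYT2 have 62.5% and 64.6% GC, in the decile with a median of 0.70, and both were less far up. That decile is wide, from 61.9% to 83.9% GC, and PTDSS2 lies at its lower edge. The decile just below it, from 58.3% to 61.8% GC, had a median of 0.50, so PTDSS2 was close to the trend at its own GC content. CHPT1 at 45.1% GC had 0.16 where the median of its decile was −0.21. PTDSS1 at 47.8% GC had −0.33 where the median was −0.08, and CHKA at 51.5% GC had −0.09 where it was 0.04. PCYT1A at 46.9% GC had −0.11, near the −0.08 of its decile, and PISD at 56.4% GC had 0.24 where the median was 0.36.

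**Figure D3:**
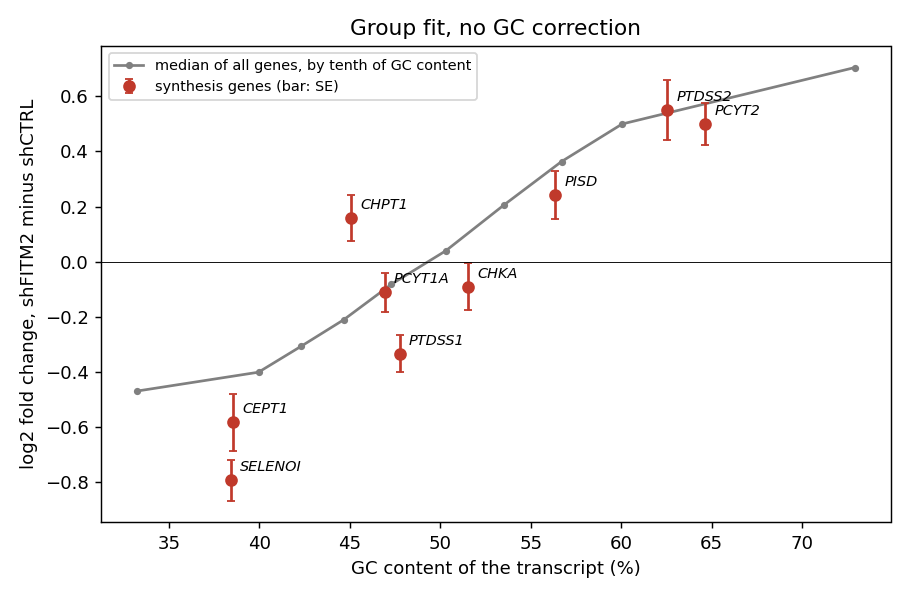
Log2 fold change in the group fit (shFITM2 minus shCTRL, bars SE) against the GC content of the transcript (%) for the 9 tested synthesis genes (red), with the median of all genes in each decile of GC content at the middle of its range (grey). PTDSS1, CHKA, CEPT1, SELENOI, PISD and PCYT2 lie below the grey line, CHPT1 lies above it, and PCYT1A and PTDSS2 lie close to it.

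Levels between genes were compared per length, as CPM per kilobase of annotated exon (FPKM), which understates a gene whose annotated exons are partly unused. In shFITM2 cells PTDSS1 was highest at 26.3 ± 0.445 FPKM (SD, n = 3), followed by CHKA at 14.4 ± 0.0313, PTDSS2 at 9.95 ± 0.88, PCYT2 at 9.49 ± 0.457 and SELENOI at 8.65 ± 0.0578 FPKM. PISD at 8.19 ± 0.668, PCYT1A at 8.12 ± 0.24, CHPT1 at 6.91 ± 0.307, CEPT1 at 3.51 ± 0.349 and CHKB at 0.109 ± 0.0954 FPKM came after these. Of neighbours in this order, PTDSS2 and PCYT2, SELENOI and PISD, and PISD and PCYT1A did not differ beyond their spread. In shCTRL cells the order was PTDSS1 at 33.1 ± 1.81, CHKA at 15.3 ± 1.41, SELENOI at 15.02 ± 1.02, PCYT1A at 8.78 ± 0.232 and PISD at 6.92 ± 0.114 FPKM. Then came PTDSS2 at 6.80 ± 0.973, PCYT2 at 6.72 ± 0.1, CHPT1 at 6.19 ± 0.295, CEPT1 at 5.26 ± 0.483 and CHKB at 0.0188 ± 0.0194 FPKM, and there CHKA and SELENOI, PISD and PTDSS2, PTDSS2 and PCYT2, and PTDSS2 and CHPT1 lay within their spread of one another. These ranks set genes of unlike GC content side by side, and GC adjustment changed them. GC-adjusted SELENOI was 9.98 ± 0.395 FPKM in shFITM2 cells, above PTDSS2 at 7.91 ± 0.42 and PCYT2 at 7.31 ± 0.0892 FPKM. In shCTRL cells GC-adjusted SELENOI was 13.02 ± 0.531 FPKM, with CHKA at 16.03 ± 1.69, PCYT2 at 8.84 ± 1.76 and PTDSS2 at 8.48 ± 0.221 FPKM. PTDSS1 and CHKA were the highest and CEPT1 the lowest of the tested genes in both groups with and without the adjustment.

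Ratios of these genes within a library do not depend on library size. The ratio of PCYT1A to PCYT2, the choline over the ethanolamine enzyme of CTP transfer, was 0.839, 0.86 and 0.87 in shFITM2 libraries, against 1.31, 1.25 and 1.36 in shCTRL libraries. The genes differ in GC content, and after GC adjustment the ratios overlapped, at 1.167, 1.155 and 1.107 in shFITM2 libraries and 0.901, 0.802 and 1.298 in shCTRL libraries. The ratio of CEPT1 to CHPT1 was 0.53, 0.439 and 0.556 in shFITM2 libraries, against 0.915, 0.924 and 0.72 in shCTRL libraries. It stayed lower in every shFITM2 library after GC adjustment, at 0.589, 0.478 and 0.592 against 0.842, 0.812 and 0.693 in shCTRL libraries.

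CEPT1 and SELENOI are nearly equal in GC content, so that their ratio hardly moved with the adjustment. It was 0.403, 0.364 and 0.45 in shFITM2 libraries and 0.382, 0.341 and 0.328 in shCTRL libraries, which overlapped. The ratio of PTDSS1 to PTDSS2 was 2.46, 2.57 and 2.93 in shFITM2 libraries, against 5.30, 5.62 and 3.96 in shCTRL libraries. After GC adjustment it was 3.25, 3.30 and 3.58 in shFITM2 libraries and 3.88, 3.91 and 3.75 in shCTRL libraries, still without overlap. The ratio of PISD to PTDSS1 was 0.302, 0.296 and 0.337 in shFITM2 libraries, against 0.203, 0.204 and 0.221 in shCTRL libraries, and 0.256, 0.255 and 0.301 against 0.242, 0.249 and 0.233 after adjustment.

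PTDSS1, CHPT1 and PCYT1A lie within 45.1% to 47.8% GC, and their ratios were added after the values had been seen. The ratio of PTDSS1 to PCYT1A was 3.18, 3.18 and 3.36 in shFITM2 libraries, against 3.97, 3.92 and 3.45 in shCTRL libraries. The ratio of CHPT1 to PCYT1A was 0.788, 0.888 and 0.88 in shFITM2 libraries, against 0.695, 0.697 and 0.723 in shCTRL libraries. The first was lower and the second higher in every shFITM2 library, and the log2 difference between groups was −0.22 and 0.27, or −0.26 and 0.35 after GC adjustment. The CHKA to CHKB ratio is not given because 2 libraries held no CHKB read.

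**Figure D4:**
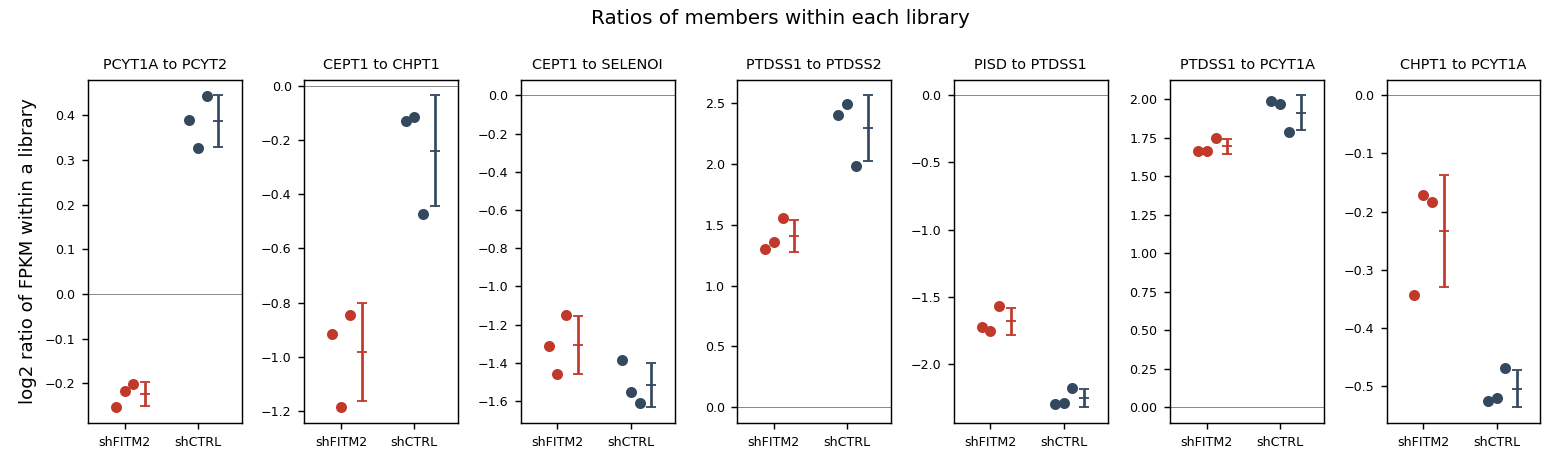
Log2 ratio of FPKM of 2 synthesis genes within each library (points), shFITM2 left of shCTRL, with the mean and SD (n = 3) beside the points and no GC adjustment. The points of the groups are apart in every panel except CEPT1 to SELENOI, and the vertical scales differ between panels. The CPM of 59% of single genes also did not overlap, and no share was computed for ratios of other gene pairs. After GC adjustment PCYT1A to PCYT2 overlapped as well. The panels of PTDSS1 to PCYT1A and CHPT1 to PCYT1A were added after the values had been seen.

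Promoters are shown for PCYT2 and PTDSS2, the 2 genes with the largest rise in the group fit, because both are rich in GC there as well as in their transcripts. GC-rich promoters were not particular to them: the 250 bases before the start had 72.0% GC in CHPT1, 70.0% in CHKB, 66.8% in SELENOI and 62.8% in CEPT1, against 59.6% in PCYT1A and 46.4% in PISD. The sequences are RefSeq's on GRCh38.p14 and end before the first annotated exon, 5′ to 3′ on the gene's strand, with the GC box (GGGCGG), the CCAAT box (CCAAT) and the E-box (CACGTG) in capitals on either strand.
PCYT2 (chr17:81911465-81911649, minus strand): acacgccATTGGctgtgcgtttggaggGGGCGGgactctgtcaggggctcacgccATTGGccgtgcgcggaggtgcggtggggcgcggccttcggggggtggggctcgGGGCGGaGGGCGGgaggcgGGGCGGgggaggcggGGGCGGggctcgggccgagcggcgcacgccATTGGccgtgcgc
PTDSS2 (chr11:448018-448267, plus strand): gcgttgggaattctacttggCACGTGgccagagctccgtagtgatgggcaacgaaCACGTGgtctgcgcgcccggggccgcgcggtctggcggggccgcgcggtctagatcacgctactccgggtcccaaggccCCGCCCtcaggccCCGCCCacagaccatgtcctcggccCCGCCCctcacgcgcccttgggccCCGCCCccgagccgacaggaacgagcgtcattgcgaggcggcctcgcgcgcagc
The stretch of PCYT2 is 185 bases long, with 78.9% GC, 5 GC boxes and 3 CCAAT boxes. That of PTDSS2 is 250 bases long, with 72.8% GC, 4 GC boxes and 2 E-boxes. The full 250 bases before the start of PCYT2 had 80.0% GC, 7 GC boxes and 3 CCAAT boxes. Among 35116 RefSeq promoters, the 250 bases before the start held a GC box in 42.6%, a CCAAT box in 32.0% and an E-box in 6.3%, with a median GC content of 58.0%. In windows of that length, SELENOI had 2 GC boxes and 1 CCAAT box, CEPT1 had 2 GC boxes and CHPT1 had 3. CHKB had 2 GC boxes and 3 CCAAT boxes, while PCYT1A and PISD had none of the motifs. Unlike the 2 stretches shown, these windows were not cut at annotated exons. The RefSeq starts used for SELENOI, CEPT1, CHPT1, CHKB and PCYT1A lie inside the annotated gene. A match describes the letters and says nothing of binding. The promoter table matched 8 of the 10 genes, all but CHKA and PTDSS1.

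Other genes of phospholipid metabolism were taken from 6 lists, of which 63 of 68 genes were tested. In the group fit 15 were called higher and 23 lower, against 24.2% and 24.5% of all tested genes. After GC correction 1 was called higher and 16 lower, against 11.8% and 17.4% of all genes. Paired values below are log2 fold changes in the group fit first and the GC-corrected fit second. In both fits SLC44A4 was higher and 8 genes were lower, while 17.9% of all genes were called in the same direction in both. Taking both directions together, the share among the 63 genes was no larger than that. Whether the lists differ from other genes was not tested. The calls in both fits were uneven by direction, 1 higher and 8 lower, with no share by direction computed over all genes. These 8 include LYPLA1, an acyl-protein thioesterase and lysophospholipase, which had the largest fall of the genes named from these lists, at 106 ± 3.38 CPM in the shFITM2 libraries, against 218 ± 24.7 CPM in the shCTRL libraries (SD, n = 3). Its log2 fold change was −1.04 ± 0.0855 (adjusted p = 2.33e-05, edgeR) and −0.60 ± 0.0475 after GC correction (adjusted p = 4.72e-07). In 5 of the lists edgeR called no gene higher after GC correction. At an unadjusted p under 0.05, 1 transfer protein gene was higher there and 0 genes of the other 4 lists.

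Choline and ethanolamine supply had 3 genes higher and 4 lower of 10 tested, and 1 and 2 after GC correction, with medians of −0.05 and 0.05. SLC44A4, a choline transporter-like protein of epithelia, averaged 198 ± 8.42 CPM in shFITM2 libraries and 135 ± 10.1 CPM in shCTRL libraries (SD, n = 3). Its log2 fold changes were 0.55 in the group fit and 0.25 in the GC-corrected one (adjusted p = 0.000187 and 0.00101, edgeR). FLVCR1, a choline transporter, had −0.56 and −0.30 (adjusted p = 0.000986 and 0.0251). Its call after correction was lost without shFITM2 replicate 1, 2 or 3 or shCTRL replicate 2 (adjusted p = 0.0565, 0.104, 0.0892 and 0.0668). SLC44A1, the widely expressed choline transporter, had −0.34 and 0.04 (adjusted p = 0.00121 and 0.52).

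The CDP-diacylglycerol branch, which leads to phosphatidylinositol and cardiolipin, had 3 of 7 genes lower and none higher in either fit (1 at an unadjusted p under 0.05 in the group fit, 0 in the DESeq2 and limma-voom tests), with medians of −0.048 and −0.052. TAMM41, the mitochondrial CDP-diacylglycerol synthase, had −0.54 and −0.45 (adjusted p = 0.00647 and 0.0206, edgeR), a call lost after correction without shFITM2 replicate 1 or 3 (adjusted p = 0.0724 and 0.0785). CRLS1, cardiolipin synthase, had −0.27 and −0.01 (adjusted p = 0.00975 and 0.951; 0.0644 in the group fit without shFITM2 replicate 2). CDS1, a CDP-diacylglycerol synthase of the endoplasmic reticulum, had −0.22 and 0.07 (adjusted p = 0.0469 and 0.443). In the group fit CDS1 lost its call when any library but shCTRL replicate 3 was left out, with adjusted p = 0.0874, 0.217 and 0.0628 without shFITM2 replicate 1, 2 and 3, and 0.118 and 0.114 without shCTRL replicate 1 and 2. With all 6 libraries it was lost with DESeq2 size factors, with no filter, in the DESeq2 Wald test and with the replicate block (adjusted p = 0.0521, 0.0776, 0.0838 and 0.0989). The genes called after correction were TAMM41, CDIPT and PGS1, of which TAMM41 alone was called in the group fit; the other two were named after their values were seen. CDIPT, which makes phosphatidylinositol, had −0.05 and −0.58 (adjusted p = 0.642 and 0.00116). PGS1, of cardiolipin synthesis, had 0.22 and −0.26 (adjusted p = 0.061 and 0.0285; 0.029 in the group fit without shCTRL replicate 3). The corrected PGS1 call was lost without shFITM2 replicate 1 or 3 or shCTRL replicate 1 or 2 (adjusted p = 0.126, 0.0902, 0.0834 and 0.0739).

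Among the 10 acyltransferases that remodel phospholipids, 3 were higher and 5 lower, and none and 2 after GC correction, with medians of −0.37 and −0.08. LPCAT2 (−0.51 and −0.06), LPCAT4 (0.42 and 0.04) and MBOAT7 (0.60 and −0.10) were called in the group fit alone (adjusted p = 0.000378, 0.000783 and 0.00124, edgeR, against 0.356, 0.64 and 0.0907 after correction). Without shCTRL replicate 3, MBOAT7 was called lower after correction (−0.12, adjusted p = 0.0122). Breakdown enzymes had 5 higher and 5 lower of 15, and none and 3 after correction, with medians of −0.14 and −0.07. LYPLA2, a relative of LYPLA1, had 0.60 and −0.04 (adjusted p = 0.000141 and 0.859; −0.17 and 0.00661 after correction without shCTRL replicate 3). GPCPD1, a glycerophosphocholine phosphodiesterase, had −0.72 and −0.36 (adjusted p = 0.000623 and 0.0318), and its call after correction was lost when any 1 library was left out (adjusted p from 0.0536 to 0.0919).

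Lipid transfer proteins had 2 higher and 5 lower of 11, and none and 5 after GC correction, with medians of −0.03 and −0.18. PRELID3B, which carries phosphatidylserine between the mitochondrial membranes, averaged 183 ± 8.61 CPM in shFITM2 libraries and 297 ± 31.9 CPM in shCTRL libraries (SD, n = 3). Its log2 fold changes were −0.69 and −0.26 (adjusted p = 0.00011 and 0.000749, edgeR). PITPNB, a phosphatidylinositol and phosphatidylcholine transfer protein, had −0.56 and −0.22 (adjusted p = 0.000337 and 0.00579). OSBPL8, which brings phosphatidylserine to the plasma membrane, had −0.63 and −0.14 (adjusted p = 0.000333 and 0.0538; 0.00433 after correction without shCTRL replicate 3 and 0.00751 with mean GC content of the coding transcripts). Genes that supply diacylglycerol or compete for it had 2 higher and 1 lower of 10, and none and 1 after correction, with medians of 0.14 and −0.07. DGAT1 had 0.50 and −0.19 (adjusted p = 0.000419 and 0.0512; −0.27 and 0.000146 after correction without shCTRL replicate 3, and −0.24 and 0.0296 with mean GC content). SGMS2, a sphingomyelin synthase that releases diacylglycerol from phosphatidylcholine, had −0.49 and −0.03 (adjusted p = 0.00208 and 0.866).

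LPCAT3 and STARD7, a remodelling acyltransferase and a phosphatidylcholine carrier, complete the 8 genes lower in both fits and were named after their values were seen. LPCAT3 had −0.38 and −0.54 (adjusted p = 0.00949 and 0.000562, edgeR; 0.0567 and 0.0518 in the group fit without shFITM2 replicate 1 and shCTRL replicate 1). STARD7 had −0.39 and −0.41 (adjusted p = 0.00129 and 8.02e-05). PLPP2, a lipid phosphate phosphatase, was called higher in the group fit and lower after correction (0.42 and −0.24), as were PNPLA6 (0.46 and −0.25) and STARD10 (0.25 and −0.15), also named after their values were seen. Their calls after correction were each lost when some single libraries were left out, with adjusted p up to 0.151, 0.106 and 0.145. That of PLPP2 was also lost with the replicate block and with mean GC content (adjusted p = 0.0598 and 0.0561), and that of STARD10 in the group fit without shFITM2 replicate 1 or shCTRL replicate 1 (adjusted p = 0.0613 and 0.0602).

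**Figure D5:**
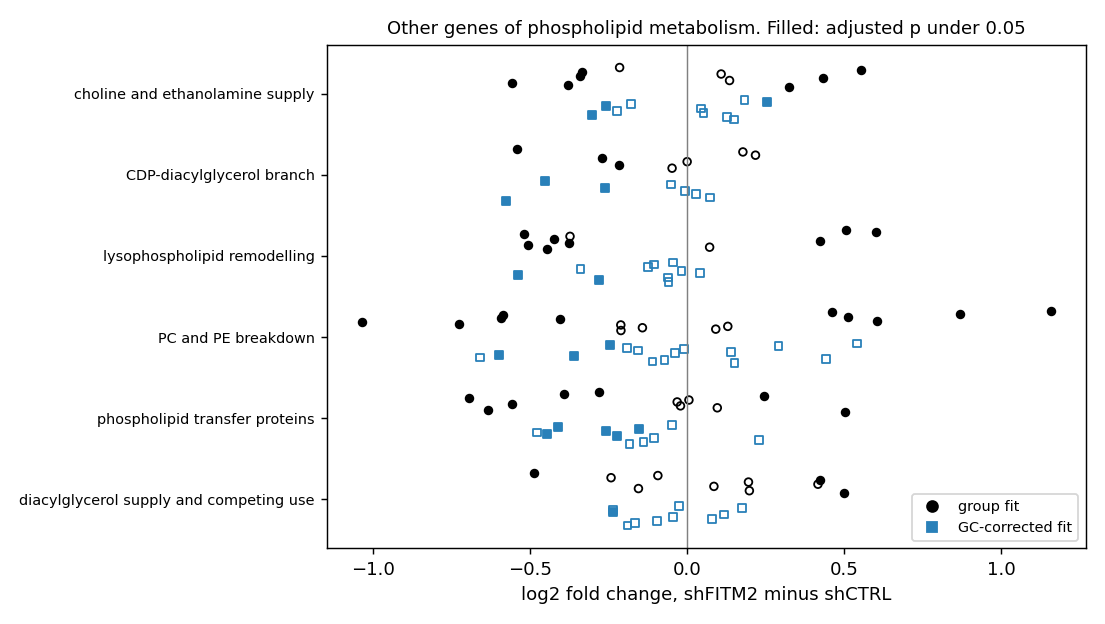
Log2 fold change (shFITM2 minus shCTRL) of the 63 tested genes of 6 lists of phospholipid metabolism (PC, phosphatidylcholine; PE, phosphatidylethanolamine) in the group fit (black circles) and the GC-corrected fit (blue squares), filled where the adjusted p was under 0.05. Filled black points lie on both sides of 0 in most lists, and 1 filled blue point, SLC44A4, lies right of 0.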

How the data were processed

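The authors deposited 1 table of raw read counts per gene with 1 column per library. Listed without roles in the submitters' processing notes are hg19, featureCounts 1.5.0-p3, HISAT2 2.0.5, DESeq2 1.16.1 and StringTie 1.3.3b. The table's positions are those of GRCh38: all 58735 Ensembl genes matched GENCODE release 29. Exon bases per gene are the deposited column. RNA libraries were directional per the labels' protocols, but the strand setting of the counting is not given in the sources used here. Groups and replicate numbers came from sample titles.

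Counts were tested with edgeR 4.0.16 (limma 3.58.1, R 4.3.3; quasi-likelihood F-test, robust, TMM, group as the sole term) after the edgeR expression filter (minimum count 10, minimum total 15; 14809 genes), with Benjamini-Hochberg adjustment over all tested genes. CPM uses TMM library sizes. For the GC-corrected fit, log2 deviations of a library from the gene means were smoothed against GC content (spline, 6 degrees of freedom) and given to edgeR as offsets. GC content was that of the longest coding transcript in GENCODE, or the longest of any kind, and 98.8% of tested genes had one. Replicates of a group differed by more than sampling noise (chi-square per gene from 2.35 to 28.6). Alternatives were other scalings, filters, tests (DESeq2 1.42.0, limma-voom) and thresholds, left-out libraries, a replicate block, and GC correction with length or with the mean GC of all coding transcripts, the last added after seeing the data. Both fits were run on simulated counts, without a GC trend and with a trend alike in all libraries of a group. The real slopes differed within groups, so the simulation does not bear on results that turn on a single library. The named genes are the members, FITM2, up to 3 genes with the smallest p per list, markers and overlapping genes. CDIPT, PGS1, LPCAT3, STARD7, PNPLA6 and STARD10 were named in addition, after their values were seen. PEMT, ETNK1 and PCYT1B are named without values. Members and lists were chosen with earlier results of these data known.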

Additional observations from a re-analysis of the deposited data

How the results depend on the processing

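Of the 9 tested synthesis genes, 6 were called in the group fit. Between 5 and 7 were called when a library was left out, 5 or 6 under the other scalings, filters, tests, adjusted p under 0.01 and the replicate block, and 0 against a 1.5-fold change (edgeR's glmTreat, where 1 had an unadjusted p under 0.05). After GC correction 4 were called, the same number with length, with the block and with mean GC content, and 3 to 6 when a library was left out. Of 7205 genes called in the group fit, 345 were called against a 1.5-fold change, 4274 after GC correction, 4224 with length as well, 4183 with the block as well and 4127 with mean GC content. With 1 library left out the count was 5338 to 9008 in the group fit and 2806 to 5615 after GC correction. The share of higher calls was 49.7% in the group fit, 40.5% after GC correction and 78% against a 1.5-fold change. The 38 calls among the other phospholipid genes became 1 against a 1.5-fold change, 17 after GC correction, with length and with mean GC content, 16 with the block as well, 29 to 43 with a library left out and 10 to 24 with the correction and a library left out. FITM2 was called under every alternative, from −1.22 to −0.98.

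Several log2 fold changes changed sign after GC correction. In the order GC correction, with length, with the replicate block and with mean GC content, the values were −0.27, −0.25, −0.26 and −0.19 for PCYT2, −0.099, −0.090, −0.10 and −0.10 for PTDSS2, and −0.13, −0.11, −0.13 and −0.22 for PISD. They were 0.043, 0.048, 0.044 and 0.032 for SLC44A1, 0.073, 0.095, 0.070 and 0.10 for CDS1, −0.10, −0.094, −0.10 and −0.10 for MBOAT7, and −0.039, −0.044, −0.028 and −0.031 for LYPLA2. They were −0.19, −0.17, −0.19 and −0.24 for DGAT1, −0.24, −0.26, −0.23 and −0.19 for PLPP2, −0.25, −0.22, −0.24 and −0.24 for PNPLA6, −0.15, −0.15, −0.15 and −0.28 for STARD10, and −0.26, −0.26, −0.26 and −0.28 for PGS1. CRLS1 had 0.015 with length and 0.029 with mean GC content. With the correction and a library left out, the ranges were −0.43 to −0.15 for PCYT2, −0.14 to −0.066 for PTDSS2, −0.21 to −0.077 for PISD, 0.020 to 0.063 for SLC44A1, 0.033 to 0.13 for CDS1, −0.13 to −0.082 for MBOAT7, −0.17 to 0.082 for LYPLA2, −0.27 to −0.12 for DGAT1, −0.34 to −0.18 for PLPP2, −0.33 to −0.17 for PNPLA6, −0.18 to −0.11 for STARD10, −0.32 to −0.23 for PGS1, −0.035 to 0.023 for CRLS1, −0.098 to 0.062 for SGMS2 and −0.058 to 0.00056 for PCYT1A. Without the correction and with a library left out, the values farthest from 0 were 0.53 for PCYT2, 0.66 for PTDSS2, 0.29 for PISD, −0.14 for PCYT1A, −0.38 for SLC44A1, −0.31 for CRLS1, −0.27 for CDS1, 0.74 for MBOAT7, 0.66 for LYPLA2, 0.55 for DGAT1, 0.45 for PLPP2, −0.56 for SGMS2, 0.52 for PNPLA6, 0.27 for STARD10 and 0.25 for PGS1. No sign changed in the alternatives without GC correction. With all 6 libraries SGMS2 and PCYT1A kept their sign after correction (−0.027 and −0.031). Their signs changed only when single libraries were left out. LYPLA2 took either sign after correction, by the library left out.

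Same-numbered libraries showed no common deviation from their group means across genes, with correlations of −0.041, −0.0066 and −0.065. Whether the numbers mark a shared culture or batch is not given in the sources used here. With the replicate block 6729 genes and 5 synthesis genes were called, and PISD lost its call (0.24, adjusted p = 0.0821). CHKB, with 20 reads in all, did not pass the filter on low counts.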
